A study of Mus musculus with 23 samples.

Results

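The guanylate-binding protein (Gbp) genes were followed across every RNA-seq library of the series, by taking the rows of the deposited expression table whose symbol is Gbp2, Gbp3, Gbp4, Gbp5, Gbp6, Gbp7, Gbp8, Gbp9 or Gbp10. These 9 symbols matched 10 of the 47643 rows, because the symbol Gbp6 stands for 2 Ensembl identifiers. The row ENSMUSG00000104713 is called Gbp6 here, and the other is called by its identifier, ENSMUSG00000079362, which GENCODE M21 names Gm43302. A further 3 rows carry a Gbp symbol, namely Gbp2b, Gbp11 and the pseudogene Gbp2-ps, and are given only beside the members. Values are TPM (transcripts scaled for their length and to one fixed total per library), which can be compared between genes.

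The study asked how loss of the nuclear receptor NR2F6 in mouse melanoma cells changes their transcriptome in and outside a tumor. B16F10, a pigmented melanoma line of C57BL/6 origin, was transfected with Cas9 protein and a Cy3-labelled guide RNA to Nr2f6 named sg492 or sg495, and Cy3-positive cells were sorted as a pool, with no cloning step stated. Unedited wild-type control, sg492 and sg495 cells were each sequenced as bulk subcutaneous tumors of young male C57BL/6 mice, as tumor cells freed of stromal cells by magnetic sorting after collagenase digestion, and as cultured cells, with 2 libraries per group and 18 in all. A further 2 libraries labelled IgG_Control and 3 labelled anti-PD1 (an antibody to the T cell checkpoint receptor PD-1) came from wild-type B16F10, and their labels give no sample type. The labels do not say that the libraries of a group came from separate mice or cultures, so p-values measure the spread between these libraries, which may be technical.

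Guanylate-binding proteins are large GTPases of the dynamin superfamily that are made at low levels in most resting cells and induced by interferons, above all by interferon gamma (IFN-γ). The induced proteins assemble on vacuoles and membranes of intracellular pathogens, together with the immunity-related GTPases, and several of them promote inflammasome signalling and pyroptosis. Some members, among them GBP2 and GBP5, end in a motif for prenylation, which anchors them to membranes.

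The genes lie in clusters on 2 chromosomes (GENCODE M21, GRCm38). Chromosome 3 holds, on the + strand, Gbp5 at chr3:142493978-142522344, Gbp7 at chr3:142530342-142550149, Gbp3 at chr3:142560026-142573209 and Gbp2 at chr3:142620602-142638008. Chromosome 5 holds, on the - strand, Gbp8 at chr5:105014150-105139540, Gbp9 at chr5:105077630-105139539, Gbp4 at chr5:105115767-105139586, Gbp10 at chr5:105215699-105239533 and Gbp6 at chr5:105270702-105293698. ENSMUSG00000079362, at chr5:105214907-105293695, spans both Gbp10 and Gbp6, and Gbp4, Gbp8 and Gbp9 overlap one another. The reads were 75 bases long, and windows of that length show which rows can be told apart. For ENSMUSG00000079362, 99.4% of all such windows of its transcripts also occur in transcripts of another gene, and the share was 77.8% for Gbp10 and 67.3% for Gbp6. It was 11.3% for Gbp7, 8.04% for Gbp8, 3.61% for Gbp9, 3.08% for Gbp4, 2.06% for Gbp3, 0.955% for Gbp2 and 0.578% for Gbp5. The split of reads among Gbp6, Gbp10 and ENSMUSG00000079362 is therefore uncertain, and their sum is given where it matters.

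Promoter sequence is shown for the 4 members that the RefSeq table (GRCm38.p6) holds, all of the chromosome 3 cluster, because these genes are known to be induced by interferons and their levels are compared next. The 250 bases before each start site are printed in lower case. Capitals mark 2 kinds of letters searched on both strands: TTTCNNTTTC (GAAANNGAAA on the other strand), a core of the interferon-stimulated response element, and TTCNNNGAA, the spacing of a gamma-activated site.

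Gbp2 (chr3:142620413-142620662, + strand): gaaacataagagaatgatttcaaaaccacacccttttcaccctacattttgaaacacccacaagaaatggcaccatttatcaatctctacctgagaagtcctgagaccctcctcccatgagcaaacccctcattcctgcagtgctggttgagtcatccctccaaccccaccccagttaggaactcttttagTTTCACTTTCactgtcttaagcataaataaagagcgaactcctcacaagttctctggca
Gbp3 (chr3:142559794-142560043, + strand): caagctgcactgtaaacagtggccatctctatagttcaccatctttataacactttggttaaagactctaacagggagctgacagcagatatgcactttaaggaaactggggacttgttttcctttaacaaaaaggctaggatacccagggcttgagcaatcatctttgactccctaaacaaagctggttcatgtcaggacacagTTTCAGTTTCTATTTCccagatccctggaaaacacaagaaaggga
Gbp5 (chr3:142496684-142496933, + strand): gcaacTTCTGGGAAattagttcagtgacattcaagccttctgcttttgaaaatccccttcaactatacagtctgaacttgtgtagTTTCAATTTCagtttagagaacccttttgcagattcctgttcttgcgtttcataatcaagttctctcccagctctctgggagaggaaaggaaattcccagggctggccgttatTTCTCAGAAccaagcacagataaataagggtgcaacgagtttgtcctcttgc
Gbp7 (chr3:142530086-142530335, + strand): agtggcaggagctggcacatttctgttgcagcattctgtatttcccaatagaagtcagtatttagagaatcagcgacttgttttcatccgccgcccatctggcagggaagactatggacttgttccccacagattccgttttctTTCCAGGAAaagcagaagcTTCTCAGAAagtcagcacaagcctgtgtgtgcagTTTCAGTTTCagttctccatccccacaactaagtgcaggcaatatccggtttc

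The paired TTTC letters occurred in each of these 4 windows. They began 59 bases before the start site in Gbp2, 165 in Gbp5 and 53 in Gbp7, and Gbp3 held a pair of overlapping matches that began 45 and 39 bases before it. Over all 32851 promoters of the table, read from 250 bases before to 50 after the start, 3.44% held that motif. TTCNNNGAA occurred 2 times each in Gbp5 and Gbp7, in neither Gbp2 nor Gbp3, and in 8.3% of all promoters. A second start site listed for Gbp3 had neither motif before it, and the Gbp5 start lies 2956 bases inside the GENCODE gene. A match is a description of letters, and no binding was measured here.

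Gbp RNA was close to absent from cultured B16F10 cells and present in bulk tumors of every group. In the 6 cultured libraries Gbp2 lay between 0.33 and 0.85 TPM, Gbp3 between 0.08 and 0.62 and Gbp7 between 0.08 and 0.24. Gbp4, Gbp5, Gbp8, Gbp9 and ENSMUSG00000079362 were listed at 0 in all 6, and Gbp6 and Gbp10 did not exceed 0.13 and 0.03 TPM. The sum over the 10 rows was 1.12 and 1.04 TPM in control, 0.94 and 1.74 in sg492 and 0.65 and 0.73 in sg495 cultures. None of the 10 rows reached the filter of a mean of 1 TPM over the 6 libraries, so no guide effect was tested in culture. The groups of cultured libraries overlapped in 8 of 10 rows for sg495 against control and in 9 of 10 for sg492, and in the others (Gbp7 and Gbp10 for sg495, Gbp10 for sg492) the guide libraries were lower, at levels under 0.2 TPM. Among the genes tested in culture, 28.9% lay below both controls with sg495 and 14.3% with sg492.

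**Figure D1:**
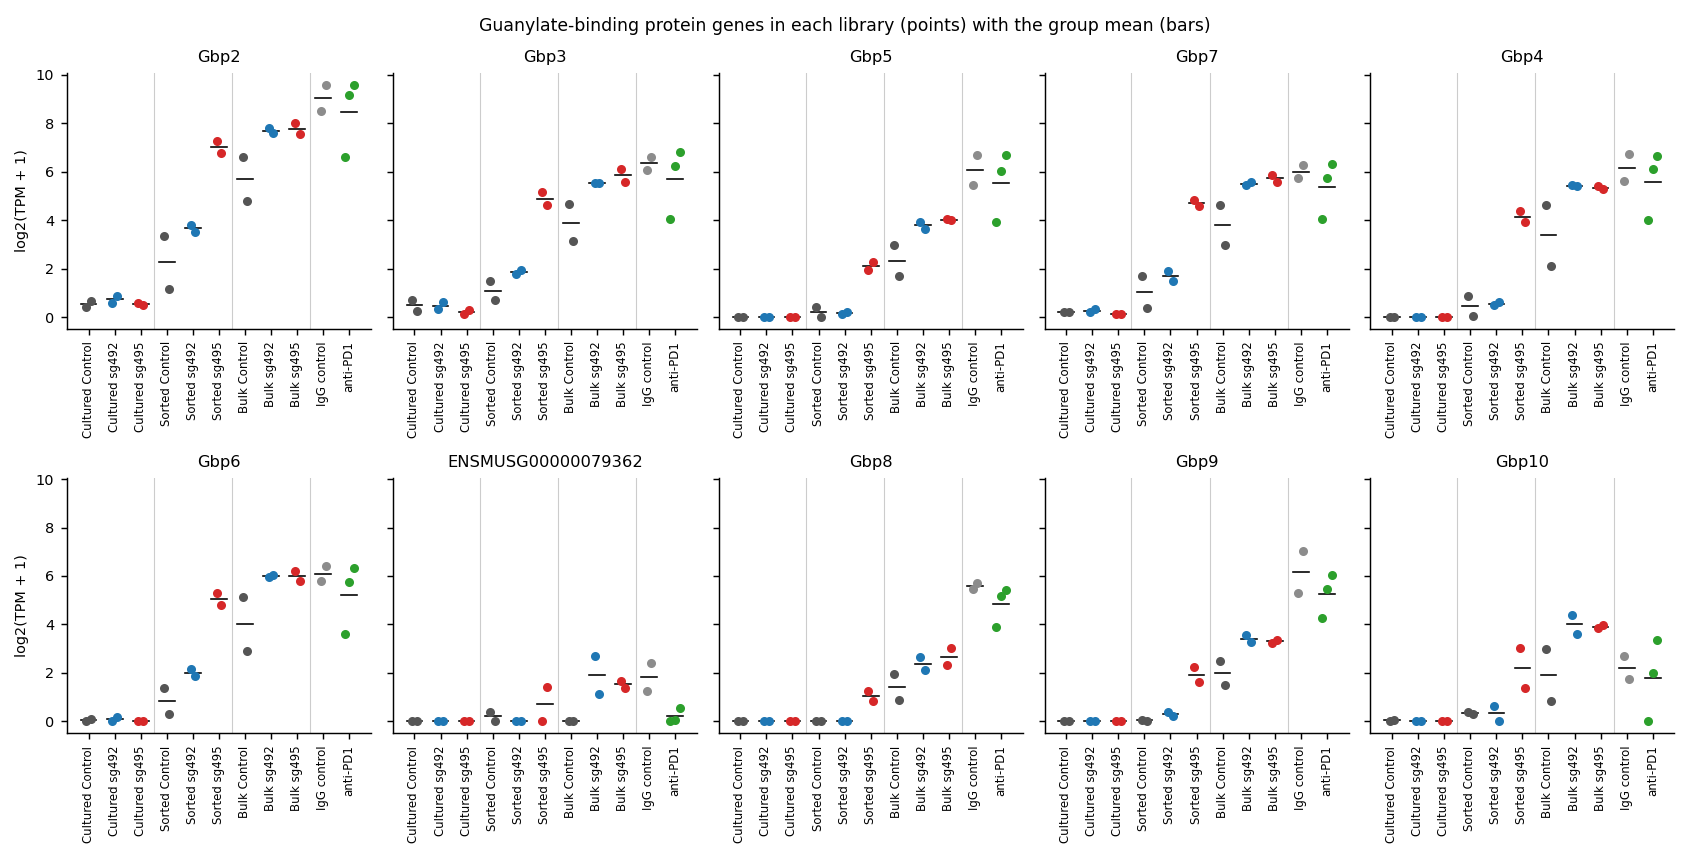
Level of each Gbp row as log2(TPM + 1) on the vertical axis, with 1 point per library and a bar at the group mean; the top row holds the chromosome 3 genes and Gbp4, the bottom row the other chromosome 5 rows. Cultured cells sit at or near 0 in every panel, and among sorted tumor cells the sg495 libraries of Gbp2, at 152 and 109 TPM, stand above both other groups.

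Gbp2, which encodes a prenylated, membrane-targeting member, was the most abundant of the 10 rows in every library but 1, a cultured control. In bulk tumors its level was 97.19 and 26.6 TPM in control, 220.33 and 192.04 in sg492 and 258.5 and 184.52 in sg495 libraries. All 4 guide libraries lay above both controls, while the controls differed from each other by a larger ratio than the libraries of either guide. In sorted tumor cells Gbp2 was at 9.29 and 1.26 TPM in control, 12.88 and 10.46 in sg492 and 152.42 and 108.89 in sg495 libraries. Here the sg495 libraries stood apart from both other groups.

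Gbp3 followed the same order. Its bulk level was 24.04 and 7.72 TPM in control, 44.83 and 44.92 in sg492 and 68 and 46.74 in sg495 tumors. Sorted cells held 1.78 and 0.63 TPM in control, 2.42 and 2.89 in sg492 and 34.3 and 23.69 in sg495 libraries. The groups did not overlap in either sample type, with control lowest and sg495 highest. Gbp7, whose product takes part in host defence at pathogen vacuoles, lay at 23.57 and 6.77 TPM in bulk control, 42.44 and 46.71 in sg492 and 57.43 and 46.75 in sg495 tumors. In sorted cells it was at 2.26 and 0.31, 2.68 and 1.82, and 27.37 and 22.74 TPM, in the same order of groups, so that control and sg492 overlapped and sg495 did not.

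On chromosome 5, Gbp6 and Gbp4 had levels like those of Gbp3 and Gbp7. Gbp6 was at 33.88 and 6.37 TPM in bulk control, 60.86 and 64.76 in sg492 and 72.69 and 54.9 in sg495 tumors. In sorted cells it was at 1.58 and 0.22 TPM in control, 3.52 and 2.61 in sg492 and 38.82 and 26.94 in sg495 libraries. Both guides lay above control there, and sg495 lay above sg492. Gbp4 was at 23.78 and 3.36 TPM in bulk control, 42.13 and 41.44 in sg492 and 41.61 and 37.6 in sg495 tumors, and in sorted cells at 0.81 and 0.03, 0.42 and 0.52, and 19.94 and 13.95 TPM. Its sorted sg492 libraries lay between the 2 controls.

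Gbp5, a promoter of inflammasome assembly, and the chromosome 5 genes Gbp8, Gbp9 and Gbp10 had lower group means than Gbp2, Gbp3, Gbp4, Gbp6 and Gbp7 in bulk tumors and sorted cells. Gbp5 was at 6.77 and 2.21 TPM in bulk control, 14.36 and 11.33 in sg492 and 15.66 and 14.83 in sg495 tumors, and its sorted levels were 0.32 and 0, 0.09 and 0.14, and 2.89 and 3.79 TPM. Gbp9 was at 4.62 and 1.81, 10.65 and 8.69, and 8.43 and 9.36 TPM in bulk tumors, and at 0.05 and 0, 0.32 and 0.17, and 3.77 and 2.05 TPM in sorted cells. Both genes were at or under 0.32 TPM in every sorted control and sg492 library.

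Gbp10 was at 6.85 and 0.77 TPM in bulk control, 19.78 and 11.3 in sg492 and 13.31 and 14.79 in sg495 tumors. Its sorted sg495 libraries were at 7.26 and 1.57 TPM, against 0.29 and 0.24 in control and 0.57 and 0 in sg492. Gbp8 was at 2.9 and 0.82, 5.31 and 3.33, and 4.03 and 7.04 TPM in bulk tumors, and was listed at 0 in all sorted control and sg492 libraries but at 1.35 and 0.77 TPM in sg495. ENSMUSG00000079362 was at 0.02 and 0, 5.54 and 1.16, and 2.21 and 1.63 TPM in bulk tumors and at 0 in 4 of 6 sorted libraries. Summed over Gbp6, Gbp10 and ENSMUSG00000079362, whose reads are shared, the locus held 2.19 and 0.46 TPM in sorted control, 4.09 and 2.61 in sg492 and 46.08 and 30.17 in sg495 cells.

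In bulk sg495 tumors the order by mean TPM was Gbp2, Gbp6, Gbp3, Gbp7, Gbp4, Gbp5, Gbp10, Gbp9, Gbp8 and ENSMUSG00000079362. Gbp2 lay well above the rest. The values of neighbours overlapped for Gbp6 and Gbp3 and for Gbp3 and Gbp7, but not for Gbp7 and Gbp4, where 46.75 was the lower of the Gbp7 values and 41.61 the higher of Gbp4. Gbp5 and Gbp10 missed an overlap only at 14.83 against 14.79 TPM, and the rows below them did not overlap their neighbours.

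Before the guide effects, the libraries were set against their labels. Nr2f6 itself was at 20.32 and 17.73 TPM in sorted control, 19.84 and 25.7 in the libraries labelled sg492 and 10.6 and 12.18 in sg495 cells, so that in sorted cells only sg495 lay below control. In bulk tumors it was at 25.83 and 25.24, 22.31 and 23.31, and 17.22 and 15.76 TPM, and in culture at 31.88 and 32.9, 26.55 and 31.5, and 18.55 and 22.43 TPM. RNA is no check of an edit that leaves the transcript in place. Ptprc, which encodes the leukocyte antigen CD45, did not exceed 0.15 TPM in sorted and was at 0 in cultured libraries, against 5.74 to 26.21 TPM in bulk tumors. The 7 melanocyte markers summed to between 14840 and 17844 TPM in all 18 libraries. They summed to 1663 to 5015 TPM in the IgG_Control and anti-PD1 libraries, where Ptprc was at 86.68 to 272.52 TPM.

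In bulk tumors, every Gbp row was higher with sg495 than in control, but none passed the test. With limma on log2(TPM + 1), calls required a Benjamini-Hochberg adjusted p under 0.05 together with a 1.5-fold change or more. For sg495 against control, 0 of 10 rows were called higher, against 0.022% of the 13639 genes tested, and all 10 had an unadjusted p below 0.05, as did 15.7% of all genes in either direction. In all 10 rows both sg495 libraries lay above both controls, which held for 31.6% of all genes tested. The median log2 difference of the rows was 1.95, beside 0.06 over all genes tested. Gbp2 differed by 2.08 (SE 0.54, adjusted p = 0.148), Gbp3 by 1.96 (SE 0.46, adjusted p = 0.125) and Gbp5 by 1.70 (SE 0.39, adjusted p = 0.12) on that scale, and the adjusted p-values of the 10 rows ran up to 0.264. The Gbp sum was 223.62 TPM in bulk control replicate 1 against 56.43 in replicate 2. Leaving out replicate 1 leaves 1 control library, with no spread of its own, so calls from that refit carry no weight. A fit of all 18 libraries called 5 rows, and the share of all genes called in that fit is not given here.

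For sg492 in bulk tumors, the log2 differences ran from 0.97 to 2.10. Here too 0 of 10 rows were called, beside 0% of all genes tested, and 10 of 10 rows lay above both controls, as did 31.1% of all genes tested. The median log2 difference was 1.81 (Gbp2 1.99, SE 0.54, Gbp9 1.42, SE 0.32, limma adjusted p = 0.497 and 0.481), and 9 rows had an unadjusted p below 0.05, as did 8.3% of all genes in either direction. Both guides share the same 2 control libraries, so they are no independent repeat of each other. Without control replicate 1 this comparison too rests on 1 control library, so calls from that refit carry no weight. Between sg495 and sg492 in bulk tumors 0 of 10 rows were called, beside 0% of all genes tested. An unadjusted p below 0.05 was found for 0 rows and for 10.1% of all genes in either direction, and 7 of 10 rows overlapped. The other 3 lay above both sg492 libraries, as did 21.1% of all genes tested. Gbp2 differed by 0.09 on the log2 scale, with a 95% interval from -1.23 to 1.41, and Gbp3 by 0.32, from -0.80 to 1.45. The intervals leave room for differences of more than 2-fold in either direction for Gbp2.

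Bulk tumors contain host cells, and the summed leukocyte and macrophage markers were higher in all guide libraries than in both controls. The 7 leukocyte markers summed to 237.68 and 164.68 TPM in bulk control, 280.53 and 318.78 in sg492 and 364.32 and 411.95 in sg495 tumors, and the 7 macrophage markers to 357.51 and 235.44, 373.44 and 455.97, and 519.19 and 546.53 TPM. All 7 leukocyte, all 7 macrophage and all 6 T cell markers had positive sg495 differences in bulk, with 0 called and 7, 7 and 2 of them at an unadjusted p below 0.05. Over all genes tested in that comparison, 63.1% were positive and 15.7% had such a p in either direction. The T cell sum was 14.28 and 5.46 TPM in control, 10.5 and 11.3 in sg492 and 15.32 and 23.23 in sg495 tumors, so that sg492 lay between the controls. The 4 B cell markers summed to 2.01 to 3.6 TPM, and Cd79a, the 1 tested, was at -0.37 with sg495 and -0.13 with sg492. Every fibroblast marker had a positive sg495 difference in bulk, among them Col1a1 (0.98), Col3a1 (0.97), Dcn (0.89), Lum (0.48) and Pdgfrb (0.33). The NK marker Klrk1 was at 1.41, and the dendritic markers Clec9a, Itgax and Zbtb46 were at 1.18, 0.97 and 0.13. Endothelial markers lay between 0.13 and 0.26. None of these fibroblast, NK, dendritic or endothelial markers was called. The part of these cells in the bulk Gbp difference was not tested. In bulk samples fewer cells of a type and less RNA per cell cannot be told apart. The 7 melanocyte markers had a median log2 difference of -0.01.

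**Figure D2:**
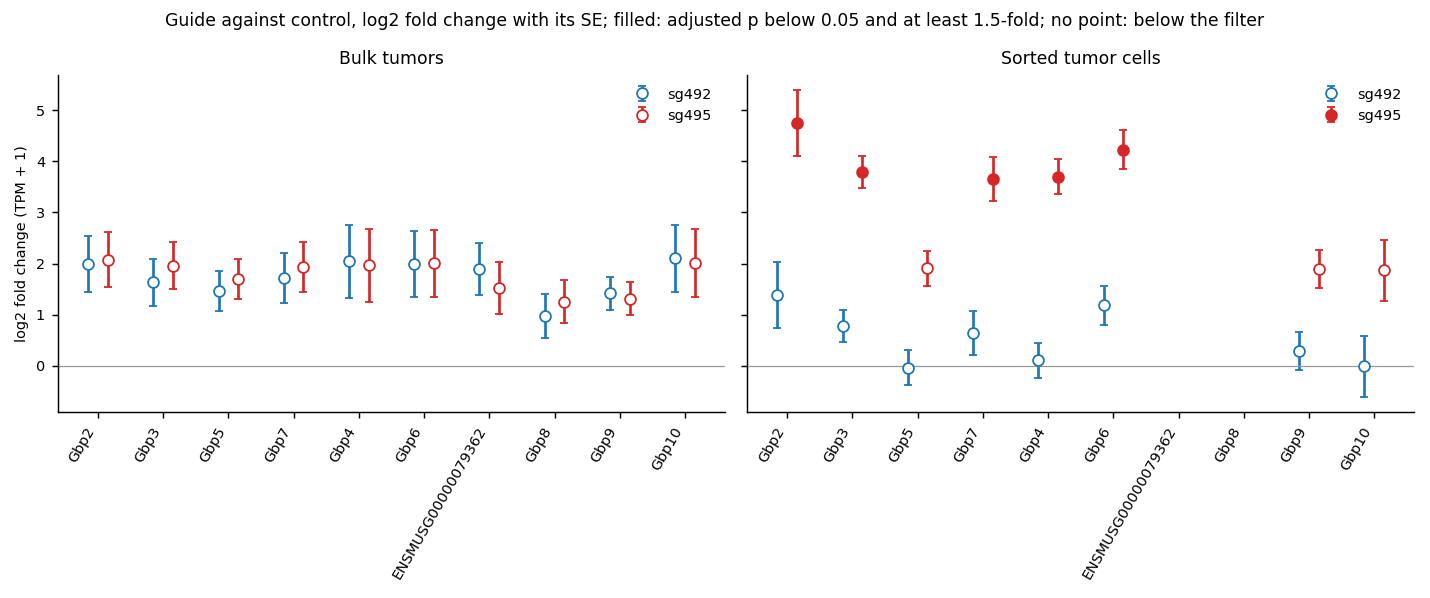
Log2 fold change of TPM + 1 for sg492 and sg495 against control (vertical axis, bars show the SE, n = 2 libraries per group) in bulk tumors and sorted tumor cells. In bulk tumors both guides sit between 0.97 and 2.10 with no row called; in sorted cells the 5 filled sg495 points lie between 3.65 and 4.75.

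In tumor cells sorted away from stroma, 5 Gbp genes rose with sg495. Of the 10 rows, 8 passed the filter and 5 were called higher than control, beside 0.605% of the 12899 genes tested. Of the 10 rows, 9 lay above both controls in both sg495 libraries, as did 17.9% of all genes tested. Gbp4, Gbp5, Gbp9 and Gbp10 passed that filter only through their sg495 libraries, so the count over rows that passed carries no weight of its own. Gbp2 rose by 4.75 on the log2 scale (SE 0.65, adjusted p = 0.0392), Gbp6 by 4.23 (SE 0.38, adjusted p = 0.0134), Gbp3 by 3.79 (SE 0.31, adjusted p = 0.00969), Gbp4 by 3.70 (SE 0.34, adjusted p = 0.0143) and Gbp7 by 3.65 (SE 0.43, adjusted p = 0.0262). Gbp5, Gbp9 and Gbp10 differed by 1.91, 1.90 and 1.87 and were not called (adjusted p = 0.0719, 0.089 and 0.227). Since 1 TPM is added to values near 0, these differences understate the change of the low rows.

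The sorted call depended on both sg495 libraries. Leaving out either one ended all 5 calls, a pseudocount of 0.1 left 2, a fit of the 2 groups alone left 3, and a test of all detected genes with no filter left 0. The difference was positive for every row that each of these fits tested. Depth is not given by TPM, and an exact permutation test of 2 libraries against 2 cannot go below p = 0.333.

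Many markers of host cells were near 0 in the sorted libraries. Among those that were not were Lcp1, Coro1a, Cd68, the B cell marker Cd79a, the dendritic marker Zbtb46 and the fibroblast markers Pdgfrb and Col1a2. Zbtb46 was at 3.32 to 4.46 TPM in sorted libraries and 3.54 to 4.37 in culture, and Pdgfrb at 1.5 to 2.61 and 3.3 to 4.92. Cd79a was at 2.26 to 4.16 TPM in sorted libraries, against 1.61 to 3.26 in bulk tumors and 0.19 to 1.03 in culture. Of the 7 leukocyte markers, Lcp1 made up most of the sum of 28.16 to 50.69 TPM, at 26.78 to 47.46. Lcp1 was at 0.59 to 1.34 TPM in culture and 38.76 to 73.71 in bulk tumors. Coro1a was at 0.65 to 3.29 TPM in sorted cells and Laptm5 at or above 0.12. Ptprc, Cd52, Cd53 and Tyrobp each stayed at or under 0.48 TPM. The leukocyte sum was 34.49 and 28.16 in control, 43.77 and 37.40 in sg492 and 43.05 and 50.69 TPM in sg495 cells. The macrophage sum was 5.31 and 3.96, 5.45 and 6.07, and 7.55 and 12.71 TPM, of which Cd68 made up 3.62 to 12.09, while Csf1r, Adgre1, C1qa, C1qb and C1qc each stayed at or under 0.31. T cell markers summed to 1.08 and 0 TPM in the sg495 libraries and to at most 0.14 in the others, and Ifng, the cytokine gene, was listed at 0 in all 4 sorted guide libraries. Their part in the Gbp difference was not tested. Over the same libraries the Gbp sum was 16.7 and 2.69 in control, 22.9 and 18.61 in sg492 and 288.12 and 206.05 TPM in sg495.

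The guides differed from each other in sorted cells. Against sg492, sg495 libraries were higher in 9 of 10 rows without overlap, which held for 15.1% of all genes tested, and 3 rows were called, beside 0.395% of all genes tested. These were Gbp4 (log2 difference 3.59, SE 0.34, limma adjusted p = 0.0182), Gbp3 (3.02, SE 0.31, 0.0215) and Gbp6 (3.05, SE 0.38, 0.0395). Gbp4, with means of 0.42 TPM in sorted control and 0.47 in sorted sg492 cells, passed the filter only through its sg495 libraries. Its place in that count therefore carries no weight of its own. Gbp7, at 3.01, missed at an adjusted p of 0.0526, and Gbp2, at 3.36, at 0.101. Leaving out any 1 of the 4 libraries ended all 3 calls, as did a pseudocount of 0.1 or no filter, while a fit of all 18 libraries called 7.

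For sg492 against control in sorted cells, 0 of 8 tested rows were called, beside 0.031% of all genes tested, and 4 of 10 rows lay above both controls, as did 20.4% of all genes tested. Gbp2 differed by 1.39 (95% interval -0.19 to 2.97, limma adjusted p = 0.715), Gbp6 by 1.19 (0.26 to 2.12, 0.635) and Gbp3 by 0.78 (0.03 to 1.52, 0.695). Gbp3 and Gbp6 were the 2 rows with an unadjusted p below 0.05, which 7.13% of all genes tested had in either direction. Gbp4, Gbp5 and Gbp10 differed by 0.11, -0.04 and -0.01.

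The sg495 difference was larger in sorted tumor cells than in culture. Tested as the difference of differences in a model of 18 libraries, 7 of 9 tested rows were called, beside 1.86% of all genes tested. Values were 4.75 for Gbp2 (SE 0.86, limma adjusted p = 0.0101), 4.28 for Gbp6 (SE 0.75, 0.00931), 4.07 for Gbp3 (SE 0.57, 0.00311), 3.74 for Gbp7 (SE 0.64, 0.00836) and 3.70 for Gbp4 (SE 0.78, 0.0237). Gbp5 and Gbp9 were called at 1.91 and 1.90, and Gbp8 and Gbp10 were not (adjusted p = 0.261 and 0.253). Gbp4, Gbp5 and Gbp9 were at 0 in every cultured library, so their values here are the sorted differences alone. On those same differences Gbp5 and Gbp9 were not called in the fit of sorted libraries. The model of 18 libraries pools the spread of the sample types, which differs between them. With 1 library left out the count fell to between 3 and 6. It was 3 without cultured control replicate 2 and 4 without cultured control replicate 1, without either cultured sg495 library, without sorted control replicate 2 or without sorted sg495 replicate 1.

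The same contrast between bulk tumors and culture called 0 of 9 rows, beside 1.6% of all genes tested. All 9 values were positive, 9 of 9 had a p under 0.05 before adjustment, and the median was 2.02. Over all genes tested, 60.2% were positive and 15.3% had such a p in either direction. Gbp3, at 2.24, had the lowest adjusted p of the rows, 0.0655. A refit without bulk control replicate 1 again rests on 1 bulk control library. Between bulk tumors and sorted cells, 0 of 9 rows were called, beside 0.0684% of all genes tested called higher and 0.0532% called lower. Of the 9 values 7 were negative, as were 34.7% of all genes tested. Bulk minus sorted was -2.68 for Gbp2 (SE 0.86, adjusted p = 0.158) and -2.23 for Gbp6 (SE 0.75, 0.176) on the log2 scale. The values of Gbp3, Gbp4 and Gbp7 were -1.84, -1.73 and -1.72. These 5 rows had an unadjusted p below 0.05, as did 16% of all genes tested in either direction. Gbp5 (-0.21), Gbp8 (0.23) and Gbp10 (0.15) lay closer to 0, with SEs of 0.44, 0.47 and 0.85. Without bulk control replicate 2, which leaves 1 bulk control library, the values of Gbp3, Gbp4 and Gbp6 were -2.60, -2.99 and -3.35.

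The sample types were also set against each other without a guide. In control libraries, 8 of 9 tested rows were higher in bulk than in sorted cells, beside 8.27% of all genes tested, with log2 differences from 1.41 (Gbp8) to 3.43 (Gbp2). Gbp10, at 1.56, was not called (adjusted p = 0.0738). Between sorted and cultured control cells, Gbp2 alone was called, at 1.73 (SE 0.60, adjusted p = 0.0352), beside 12.4% of all genes tested. That call was lost without sorted control replicate 1, the library in which Gbp2 was at 9.29 TPM, where the difference fell to 0.64. It was also lost without either cultured control library, with quantile normalization and with no filter. Each refit without 1 control library leaves 1 library in that group.

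Among sg495 libraries the picture by member was uneven. Gbp5, Gbp8, Gbp9 and Gbp10 were called higher in bulk than in sorted cells, 4 of 9 tested rows beside 10.1% of all genes tested, with log2 differences of 1.91, 1.64, 1.37 and 1.71. Gbp2 (0.76), Gbp6 (0.94), Gbp3 (0.96), Gbp7 (1.03) and Gbp4 (1.20) were not called, with adjusted p between 0.0878 and 0.367. As a ratio of mean TPM, the sorted sg495 level was 59% of the bulk level for Gbp2, 51.5% for Gbp6, 50.5% for Gbp3, 48.1% for Gbp7 and 42.8% for Gbp4. It was 32.7% for Gbp9, 31.4% for Gbp10, 21.9% for Gbp5 and 19.2% for Gbp8. Gbp2b, the neighbour of Gbp2 in sequence and position, was at 2.9 and 5.14 TPM in bulk sg495 tumors and listed at 0 in all 6 sorted libraries. This contrast was chosen after seeing the data. With a filter at a mean of 5 TPM, 0 rows were called, but the 4 rows called here lie below that filter and were not tested.

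**Figure D3:**
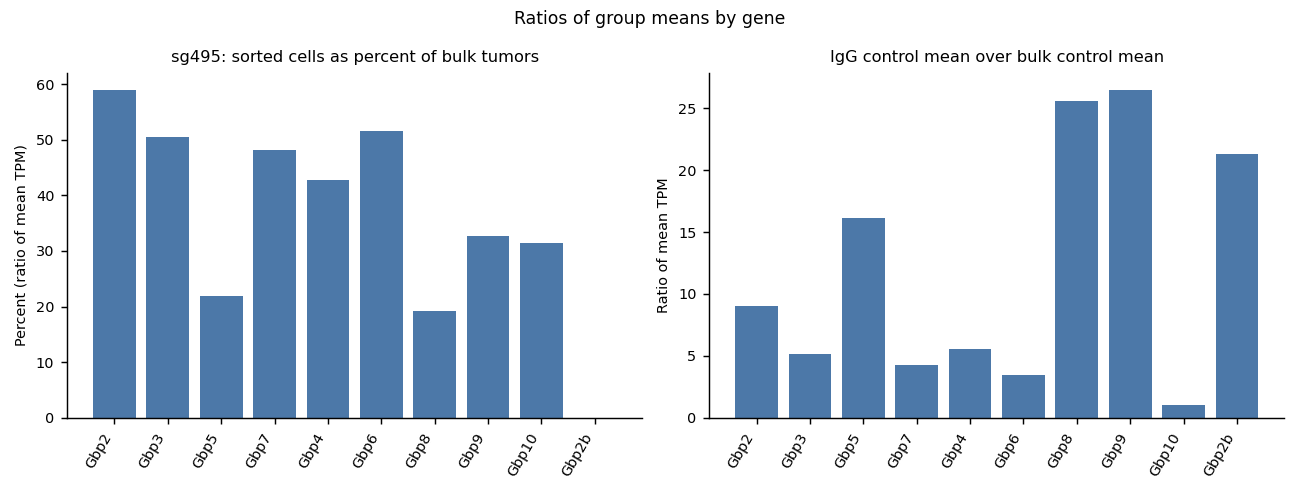
Ratios of mean TPM by gene: the sg495 sorted-cell mean as a percent of the sg495 bulk mean (left) and the IgG_Control mean over the bulk control mean (right). Gbp5, Gbp8 and Gbp9 have low percents on the left, at 21.9, 19.2 and 32.7, and high ratios on the right, at 16.1, 25.6 and 26.5, while Gbp10 has 31.4 on the left and 1.02 on the right.

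The highest Gbp sums were in 4 of the 5 IgG_Control and anti-PD1 libraries. Gbp2 was at 358.85 and 757.18 TPM with IgG and at 96.96, 570.45 and 766.52 TPM with anti-PD1. The Gbp sum was 711.35 and 1409.79 TPM with IgG and 200.58, 961.94 and 1351.63 with anti-PD1, so that anti-PD1 replicate 1 stood below the other 4. In the same replicate order, Ifng was at 13.14 and 22.58 TPM with IgG and 0.78, 16.21 and 49.47 with anti-PD1, and the 6 T cell markers summed to 107.34 and 157.67 and to 12.40, 29.47 and 200.58 TPM. The part of these cells in the Gbp levels was not tested.

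For anti-PD1 against IgG, 0 of 10 rows were called, beside 0% of all genes tested. An unadjusted p below 0.05 was found for 1 row and for 7.18% of all genes in either direction. All 10 differences were negative (Gbp2 -0.58, SE 0.84, Gbp9 -0.93, SE 0.64, limma adjusted p = 0.809 and 0.629), as were 53.5% of all genes tested, and the median of the rows was -0.64. That direction rested on anti-PD1 replicate 1. Without it, 6 of 10 rows turned positive, Gbp2 was at 0.34 and the median at 0.10. The exact permutation test of 2 libraries against 3 cannot go below p = 0.1.

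The make-up of the family was read as each row's share of the Gbp sum. Gbp2 took 43.5% to 47.7% of the Gbp sum in bulk tumors and 46.8% to 56.2% in sorted cells. Gbp5, Gbp8 and Gbp9 together took 5.19% to 8.58% in bulk tumors, 0% to 3.21% in sorted cells and 14.7% to 23.1% in the IgG_Control and anti-PD1 libraries, with no overlap between the 3 sets. These 3 genes were grouped after their values were seen. Gbp4 took 5.95% to 10.6% in bulk tumors and 6.65% to 7.39% with IgG. In sorted cells it took 1.83% and 2.79% with sg492 against 6.92% and 6.77% with sg495. The lowest sorted share, 1.1%, was in a control library. Gbp8 was at 43.64 and 51.45 TPM and Gbp9 at 38.62 and 131.51 with IgG, 25.6 and 26.5 times their bulk control means, against 9.02 for Gbp2 and 3.44 for Gbp6. Gbp10 was at 5.39 and 2.36 TPM with IgG, a ratio of 1.02. These libraries were tested in a model of their own, so the ratios are levels set side by side with no test.

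**Figure D4:**
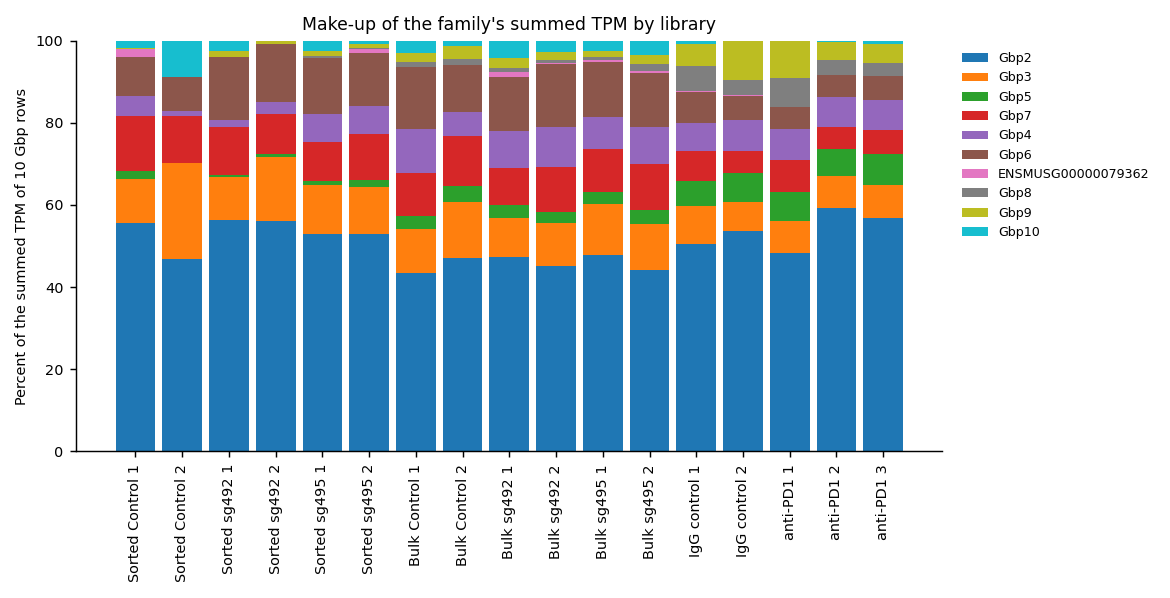
Share of each row in the summed TPM of the 10 Gbp rows (vertical axis, percent), 1 bar per library of sorted cells, bulk tumors, IgG_Control and anti-PD1. Gbp2 takes 43.5% to 59.3% of each bar, and Gbp5, Gbp8 and Gbp9 together take 14.7% to 23.1% in the 5 rightmost bars.

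The Gbp sum was set beside the leukocyte marker Ptprc in each library. Sorted sg495 libraries had Gbp sums of 288.12 and 206.05 TPM at Ptprc levels of 0.15 and 0.02, while bulk control tumors had 223.62 and 56.43 TPM at Ptprc levels of 9.29 and 5.74. IgG_Control libraries had 711.35 and 1409.79 TPM at Ptprc levels of 162 and 272.52.

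**Figure D5:**
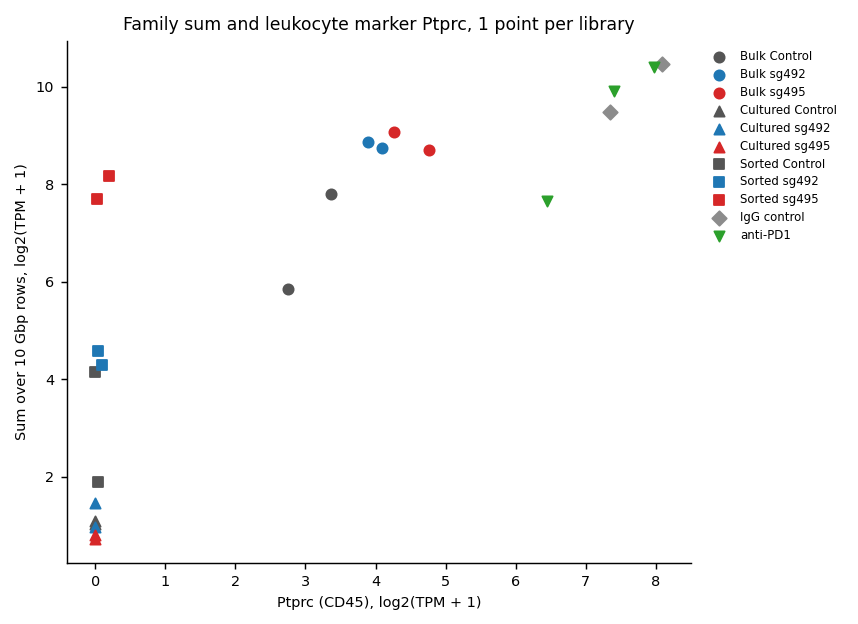
Sum over the 10 Gbp rows against Ptprc, both as log2(TPM + 1), with 1 point per library. The sorted sg495 squares sit at the left edge, at Ptprc levels of 0.15 and 0.02 TPM, with sums of 288.12 and 206.05 TPM against 223.62 and 56.43 in the bulk control tumors.

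Lists of pathway genes were read in the same fits. Of the 12 genes of IFN-γ signalling, 9 were tested in sorted cells, with a median sg495 log2 difference of 0.90 against -0.04 over all genes. Called higher with sg495 were 4 of them, beside 0.605% of all genes tested. Among them were Nlrc5 (3.74, limma adjusted p = 0.0223), a regulator of MHC class I genes, the transcription factor Irf1 (3.57, 0.0167) and Batf2 (2.18, 0.0251). Irf1 was at 6.4 and 2.91 TPM in control, 12.34 and 7.47 in sg492 and 73.34 and 53.74 in sg495 sorted cells. The receptor and kinase genes Ifngr1, Ifngr2, Jak1 and Jak2 were tested in each sample type and not called for either guide. In sg495 cultures 6 genes of the list were tested and 0 called, with 2 at an unadjusted p below 0.05, as were 27.8% of all genes tested. In bulk sg495 tumors 11 were tested and 0 called, with all 11 positive and 9 at that unadjusted p. Over all genes tested there, 63.1% were positive and 15.7% had such a p in either direction. The counts for lists come from the same fits as the Gbp rows and were not repeated under the alternatives.

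The immunity-related GTPases, which act with the Gbp proteins at pathogen vacuoles, rose in the same libraries. Of 8 genes, 7 were tested in sorted cells and 7 were called higher with sg495, from 2.92 for Gm12250 to 5.52 for Tgtp2, with a median of 4.65, beside 0.605% of all genes tested. Gm12250, at no more than 0.69 TPM in sorted control and sg492 cells, passed the filter only through its sg495 libraries. Igtp was at 3.61 and 0.35 TPM in control, 4.51 and 4.40 in sg492 and 95.45 and 74.61 in sg495 cells. Gvin1 was the gene below the filter, at no more than 0.09 TPM in any sorted library, although it reached 120.91 TPM with IgG. In bulk tumors 0 of 8 were called with sg495, all 8 positive and at an unadjusted p below 0.05, with a median of 1.75. Among all genes tested in bulk, 63.1% were positive and 15.7% had such a p in either direction. Tgtp1 and Tgtp2 are near-identical copies, so the split of reads between them is uncertain.

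Of the 7 genes of type I interferon signalling, Irf9 was the 1 called in sorted sg495 cells (1.55, limma adjusted p = 0.0392) among 6 tested, beside 0.605% of all genes tested called higher. Ifnb1 did not exceed 0.57 TPM in any of the 18 libraries. Of the 9 inflammasome and pyroptosis genes, 5 were tested there and 1 was called, lower, beside 0.295% of all genes tested: Pycard, the adaptor ASC (-0.73, adjusted p = 0.0469). The other 4 were positive and not called, namely Gsdmd, the pore-forming gasdermin D (1.00, adjusted p = 0.094), Casp4 (0.42, 0.318), Ninj1 (0.25, 0.253) and Il18 (0.22, 0.627). In the sorted minus cultured contrast Gsdmd (1.40, adjusted p = 0.00364) and Pycard (0.83, 0.014) were called higher, beside 1.86% of all genes tested. For Pycard the positive value is a smaller fall in sorted than in cultured cells. Pycard was also called lower in sg495 cultures (-1.56, adjusted p = 0.00189), at 17.18 and 16.43 against 46.21 and 57.45 TPM in control, together with Il18 (-0.84, 0.0265). None of the 10 ubiquitin-like conjugation genes, which guide these GTPases to membranes, and none of the 5 prenylation genes was called for either guide in any sample type by limma. In sorted sg495 cells 2 and 1 of them had an unadjusted p below 0.05, as did 15.6% of all genes tested in either direction. The median log2 differences of the 2 lists with sg495 in sorted cells were -0.04 and -0.20. Fnta, of the prenylation list, was at -0.46 with sg495 in bulk, -0.57 in sorted and -0.31 in cultured cells. In culture its limma adjusted p was 0.0307, and it missed the call on the 1.5-fold threshold.

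The genes whose pattern was most like that of the family were found over the 18 libraries by Pearson r with the mean log2(TPM + 1) of the Gbp rows, after each sample type was centred on its own mean. Among the 8 genes outside the family with the highest values were Apol9b (0.983), Gm12250 (0.979), Tgtp1 (0.978), Olfr56 (0.977), Gm4951 (0.977), Parp14 (0.977) and Irgm2 (0.974). Among the members themselves r lay between 0.906 (Gbp8) and 0.987 (Gbp7), save for ENSMUSG00000079362 at 0.616. The row of Olfr56 overlaps Ifi47, an immunity-related GTPase gene, on the same strand. The points share libraries and the 3 groups of each type, so these values describe likeness and nothing more. Apol9b differed in the libraries outside this set, at 6.49 and 2.59 TPM with IgG against 45.34 and 37.45 in bulk sg495 tumors.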

How the data were processed

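RNA-seq was measured in 23 libraries of mouse B16F10 melanoma, with poly(A) selection, a directional kit and 75-base single-end reads. Per the labels and the study's methods, the authors trimmed reads with cutadapt 2.3, aligned them to mm10 with STAR 2.7.0d and Ensembl annotation, and estimated genes with RSEM 1.3.1, which splits reads shared by similar transcripts. The labels state 23000000 to 31000000 reads per library. The authors deposited 1 table of TPM values, which keep no depth, so no count model could be used and no counting interval could be given. No column lacked a sample (0 of 23).

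TPM were used as deposited. For each comparison, genes whose mean over the fitted libraries reached 1 TPM were kept, and limma 3.58.1 in R 4.3.3 (lmFit, contrasts, eBayes with a trend) was run on log2(TPM + 1). Fold changes are on that scale. The 6 libraries of a sample type were fitted together, contrasts between types used all 18, and IgG_Control and anti-PD1 were fitted alone. Tests are two-sided, with Benjamini-Hochberg adjustment across every gene tested. Calls needed an adjusted p under 0.05 together with a 1.5-fold change or more. Of the table's identifiers, 47224 were found in GENCODE M21. The scripts were tested on simulated data.

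The members, gene lists and contrasts were chosen with earlier results of these data known. The text names the members, other Gbp rows, listed genes that were called or at 0 and, as examples, a few others with their values, Nr2f6, Ptprc and genes among the 8 most alike. 1 gene of these sets is not reported here. Examples beyond that rule were chosen after their values were seen. Markers for NK, dendritic, B, endothelial and fibroblast cells were also read. In sorted sg495 against control, only Zbtb46, Cd79a, Pdgfrb and Col1a2 of them passed the filter, and no NK or endothelial marker did. Of those tested, 0 were called, beside 0.605% of all genes tested called higher and 0.295% called lower. Alternatives changed the pseudocount, filter, scaling, fit, trend, fold threshold, replicate block and the libraries kept.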

Additional observations from a re-analysis of the deposited data

Results flagged for a closer look

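For 7 Gbp genes the sg495 effect differed between sorted tumor cells and cultured cells, tested in a model of all 18 libraries. Of all genes tested in that contrast, 1.86% were called higher. The difference, on the log2(TPM + 1) scale, was 4.75 for Gbp2 (limma adjusted p = 0.0101), 4.28 for Gbp6 (0.00931) and 4.07 for Gbp3 (0.00311). It was 3.74 for Gbp7 (0.00836) and 3.70 for Gbp4 (0.0237). For Gbp5 and Gbp9 it was 1.91 (0.0328) and 1.90 (0.0239), although neither was called in the fit of sorted libraries alone. All 7 were at or under 0.85 TPM in every cultured library, so the cultured part of each difference lay near 0 and the sorted part made up nearly the whole value. In both sorted sg495 libraries each of the 7 was above both sorted controls, as were 17.9% of all genes tested in sorted cells. That order is read from the same values as the test, so it adds no support of its own.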

How the results depend on the processing

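Over 86 values of single Gbp rows, chosen as those the text names and not all rows of all comparisons, and 1174 refits of them, 1035 kept their direction and their side of the threshold, 85 lost a call, 50 gained one and 4 turned sign. The cause of these changes was not tested. With a pseudocount of 0.1, the rows called were 2 for sorted sg495 against control (5 as reported), 0 for sorted sg495 against sg492 (3) and 3 for sorted against cultured controls (1). With no filter they were 0, 0 and 0, and 4 for the sorted minus cultured sg495 effect (7). A filter at 5 TPM gave 5 for bulk against sorted controls (8) and 0 for bulk against sorted sg495 libraries (4), since it leaves fewer rows to test. Quantile normalization gave 0 for sorted against cultured controls. The fit of all 18 libraries gave 5 for bulk sg495 (0) and 7 for sorted sg495 against sg492, and fits of 2 groups alone gave 3 for sorted sg495 against control and 5 for sg495 against sg492.

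Leaving out 1 library at a time gave 0 to 8 rows for bulk sg495, bulk sg492 and the bulk minus cultured effect, 0 to 5 for sorted sg495 against control, 0 throughout for sorted sg495 against sg492, 3 to 6 for the sorted minus cultured effect and 0 to 2 for sorted against cultured controls. In each of those refits 1 group kept 1 library, with no spread of its own, so a call gained there carries no weight. The values that turned sign did so with 1 library left out. Gbp2 in anti-PD1 against IgG ran from -1.14 to 0.34, Gbp2 in bulk sg495 against sg492 from -0.16 to 0.33 and ENSMUSG00000079362 there from -1.17 to 0.43. Another scaling moved the median log2 difference of all genes by less than 0.1 in every comparison but bulk against sorted sg495 libraries, where quantile normalization took it from 0.10 to -0.04 and called 3 rows (4).

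Same-numbered libraries did not deviate together (r from -0.126 to 0.0851), so the numbers were not taken as pairs. With a replicate block the counts were 5 for sorted sg495 against control, 4 for sg495 against sg492, 0 for both guides in bulk tumors, 7 for the sorted minus cultured effect and 9 for bulk against sorted controls, none over 1.5 times from those reported. Depth is unknown from TPM, and 2 libraries per group limit every test.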

Other observations

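Gbp2b lay in none of the comparisons as a member. It was at 14.05 and 15.55 TPM with IgG, at 2.58, 22.29 and 33.22 TPM with anti-PD1, at no more than 5.14 TPM in bulk tumors and at 0 in all 6 sorted libraries. Gbp11, annotated as a polymorphic pseudogene, did not exceed 1.79 TPM, and Gbp2-ps was listed at 0 in all 23 libraries.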
